A study of Arabidopsis thaliana with 9 samples.

Results

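Metallothioneins were followed in Arabidopsis leaves by EXPRSS Tag-seq, which sequences 1 tag from the 3′ end of each polyadenylated transcript. The 5 genes are MT1A (AT1G07600), MT1C (AT1G07610), MT2A (AT3G09390), MT2B (AT5G02380) and MT3 (AT3G15353). They were chosen by name as the sense rows of these loci, and all 5 were found among the 21063 sense loci with tags in at least 1 library. The plants were slh1 mutants, in which the immune receptor gene RRS1 is altered, set against wild-type No-0 plants. All plants were of the ecotype Nossen (No-0), were germinated on MS plates and were 4 weeks old, with growth at 28 °C under a day of 10 h light and 14 h dark. Plants were then moved to 21 °C at the beginning of the light cycle. Leaves were taken at 0 h (still at 28 °C) and at 6, 9 and 24 h after the transfer, with 1 library for each genotype and time and hence 8 libraries without replicates. The 0 h and 24 h samples fall at the start of the light period and the 6 h and 9 h samples within it, so that 24 h against 0 h is matched for time of day while 6 h and 9 h against 0 h are not. Time after transfer and temperature cannot be told apart, and at 6 and 9 h neither can time of day.

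Metallothioneins are small proteins rich in cysteine, whose thiol groups bind copper, zinc and cadmium ions. In Arabidopsis they fall into classes by the arrangement of their cysteines. MT1 and MT2 proteins bind mainly copper and are known to take part in copper balance, also in ageing leaves, where metals are moved out. MT1A and MT2B are known from the phloem, MT2A and MT3 from mesophyll and young leaves, and the MT4 genes (AT2G42000 and AT2G23240) from seeds. Neither MT4 gene had a tag in any library, where the limit of 3 tags taken for a count of 0 comes to between 5.96 and 15.0 TPM (tags per 1000000 sense tags).

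The coding sequences show what defines the family and how alike its members are. They are given from the RefSeq annotation of TAIR10.1 with every cysteine codon (TGC or TGT) of the reading frame in capitals.
MT1A: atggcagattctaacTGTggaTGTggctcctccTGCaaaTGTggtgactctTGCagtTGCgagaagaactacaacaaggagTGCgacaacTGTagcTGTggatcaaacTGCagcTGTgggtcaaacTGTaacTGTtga
MT1C: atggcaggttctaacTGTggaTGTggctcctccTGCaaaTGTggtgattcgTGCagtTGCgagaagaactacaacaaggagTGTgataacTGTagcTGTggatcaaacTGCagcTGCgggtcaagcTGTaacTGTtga
MT2A: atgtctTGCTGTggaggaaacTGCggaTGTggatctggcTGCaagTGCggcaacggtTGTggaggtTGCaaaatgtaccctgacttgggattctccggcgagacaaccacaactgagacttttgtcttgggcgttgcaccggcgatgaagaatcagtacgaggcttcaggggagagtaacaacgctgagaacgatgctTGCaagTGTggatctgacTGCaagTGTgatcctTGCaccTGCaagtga
MT2B: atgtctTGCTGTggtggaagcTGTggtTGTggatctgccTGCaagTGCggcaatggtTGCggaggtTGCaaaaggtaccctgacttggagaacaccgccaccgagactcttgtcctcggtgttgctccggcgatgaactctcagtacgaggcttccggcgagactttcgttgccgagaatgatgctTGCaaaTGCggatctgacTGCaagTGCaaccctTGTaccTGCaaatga
MT3: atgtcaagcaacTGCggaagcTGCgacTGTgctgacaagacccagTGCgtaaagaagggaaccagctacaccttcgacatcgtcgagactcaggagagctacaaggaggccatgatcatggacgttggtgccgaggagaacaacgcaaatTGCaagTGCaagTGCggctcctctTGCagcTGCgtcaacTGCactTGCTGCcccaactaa
The class 1 genes have 13 cysteine codons among 45 codons, which lie in a cluster at each end. MT2A and MT2B have 14 cysteine codons each and MT3 has 12, with a long stretch free of cysteine between the clusters. MT1A and MT1C share 131 of 138 coding bases (94.9%), and MT2A and MT2B share 196 of 246 aligned positions (79.7%).

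In TAIR10.1, MT1A lies on chromosome 1 from 2338904 to 2339321 on the minus strand, and MT1C on the same chromosome from 2341447 to 2342148 on the plus strand, with 2125 bases between them. MT2A lies on chromosome 3 from 2889406 to 2890574, MT3 on chromosome 3 from 5180642 to 5181586 and MT2B on chromosome 5 from 506498 to 507244, all on the minus strand. The tags had 36 bases, and no window of that length in MT2A, MT2B or MT3, or in the 500 bases downstream of them, had another exact match in the genome.

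The 8 libraries held between 227021 and 573997 tags, of which at most 12.3% were antisense. In TPM 1 tag is worth between 1.99 and 4.98 TPM, and since each transcript gives 1 tag, levels were compared between genes without scaling by length. RRS1 had between 0 and 3 tags and gives no check of the genotype labels. Leaf tissue was checked by markers. The 5 mesophyll genes (RBCS1A, LHCB1.3, LHCB2.1, RCA and CA1) together gave between 26504 and 36569 TPM in slh1, against between 30149 and 44232 TPM in No-0, and 5 root genes summed to at most 6.65 TPM, with PHT1;1, COBL9 and EXP7 at 0. In bulk leaves, fewer cells of a type and less RNA per cell cannot be told apart.

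Among the 5 rows, MT2B, MT3 and MT2A made up nearly all of the tags, while MT1C and MT1A were low. This leaves out AT1G07590, in which MT1A lies in TAIR10.1, whose row had between 553 and 5781 TPM and is described below. The 5 rows summed to 3975, 6510, 8960 and 9071 TPM in slh1 at 0, 6, 9 and 24 h, against 2806, 7532, 10936 and 8544 TPM in No-0. The lowest sum of each genotype was thus at 0 h, before the transfer. At 24 h the sum was 2.28 times that at 0 h in slh1 (log2 ratio 1.19, 95% counting interval 1.07 to 1.31) and 3.04 times in No-0 (log2 ratio 1.61, 1.51 to 1.71). These intervals, like all others given for single libraries, cover counting error only. The sum was between 0.281% and 1.09% of the sense tags of a library.

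**Figure D1:**
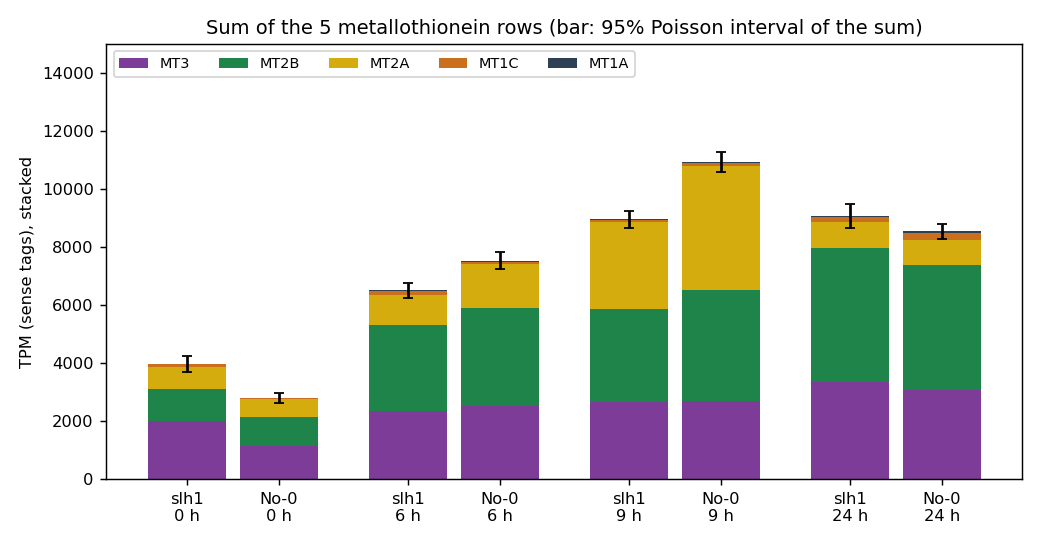
Stacked TPM of the 5 metallothionein rows in each library, with slh1 left of No-0 at each time and the 95% Poisson interval of the sum as a bar. The sum is lowest at 0 h in both genotypes, and the MT2A share is widest at 9 h, with 33.7% in slh1 and 38.8% in No-0.

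The order of levels differed between times. At 0 h MT3 was the highest row in slh1 (1996 TPM, 95% Poisson interval 1806 to 2202) ahead of MT2B (1112 TPM, 970 to 1267), while in No-0 MT3 (1155 TPM, 1047 to 1271) and MT2B (995 TPM, 895 to 1103) had overlapping intervals. At 6 h and at 24 h MT2B was highest, followed by MT3, MT2A, MT1C and MT1A in both genotypes. At 9 h MT2B (3200 TPM, 3027 to 3380) and MT2A (3022 TPM, 2854 to 3197) overlapped in slh1, and MT2A (4248 TPM, 4039 to 4465) was above MT2B (3830 TPM, 3632 to 4037) in No-0. MT2B ranked 19th among all sense rows of slh1 at 24 h, and MT2A ranked 23rd in No-0 at 9 h.

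MT2B, a class 2 gene, rose within 6 h and stayed high. It had 1112, 2953, 3200 and 4608 TPM in slh1 at 0, 6, 9 and 24 h, against 995, 3382, 3830 and 4303 TPM in No-0. Each library at 21 °C was above both libraries at 28 °C. Over both genotypes the log2 fold change from 0 h was 1.62 ± 0.24 at 6 h (SE, edgeR adjusted p 6.66e-08), 1.69 ± 0.24 at 9 h (4.29e-09) and 2.14 ± 0.24 at 24 h (2.68e-14). The error of these fits is the departure of the genotypes from parallel time courses. At 24 h against the mean of 6 and 9 h the difference was 0.49 ± 0.20 and did not pass the test (adjusted p 0.0876), but it passed with a filter of 20 tags on average and without organelle loci.

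MT3, the class 3 gene, passed the test against 0 h at 9 h and at 24 h. It had 1996, 2368, 2656 and 3356 TPM in slh1 at 0, 6, 9 and 24 h, against 1155, 2536, 2708 and 3090 TPM in No-0. The libraries of the genotypes were further apart at 0 h than at each later time, 1 against 1, and no genotype test of MT3 passed. The log2 fold change from 0 h over both genotypes was 0.70 ± 0.24 at 6 h (edgeR adjusted p 0.0805, not passed), 0.75 ± 0.24 at 9 h (0.0343) and 1.11 ± 0.24 at 24 h (0.000131). At 24 h against the mean of 6 and 9 h the difference was 0.39 ± 0.20 (0.224, not passed). The call at 9 h was lost with RLE size factors, with a filter of 20 tags on average, with DESeq2 and without either 9 h library. Without the No-0 library at 0 h no time passed against 0 h, with adjusted p 0.717, 0.591 and 0.170 at 6, 9 and 24 h.

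**Figure D2:**
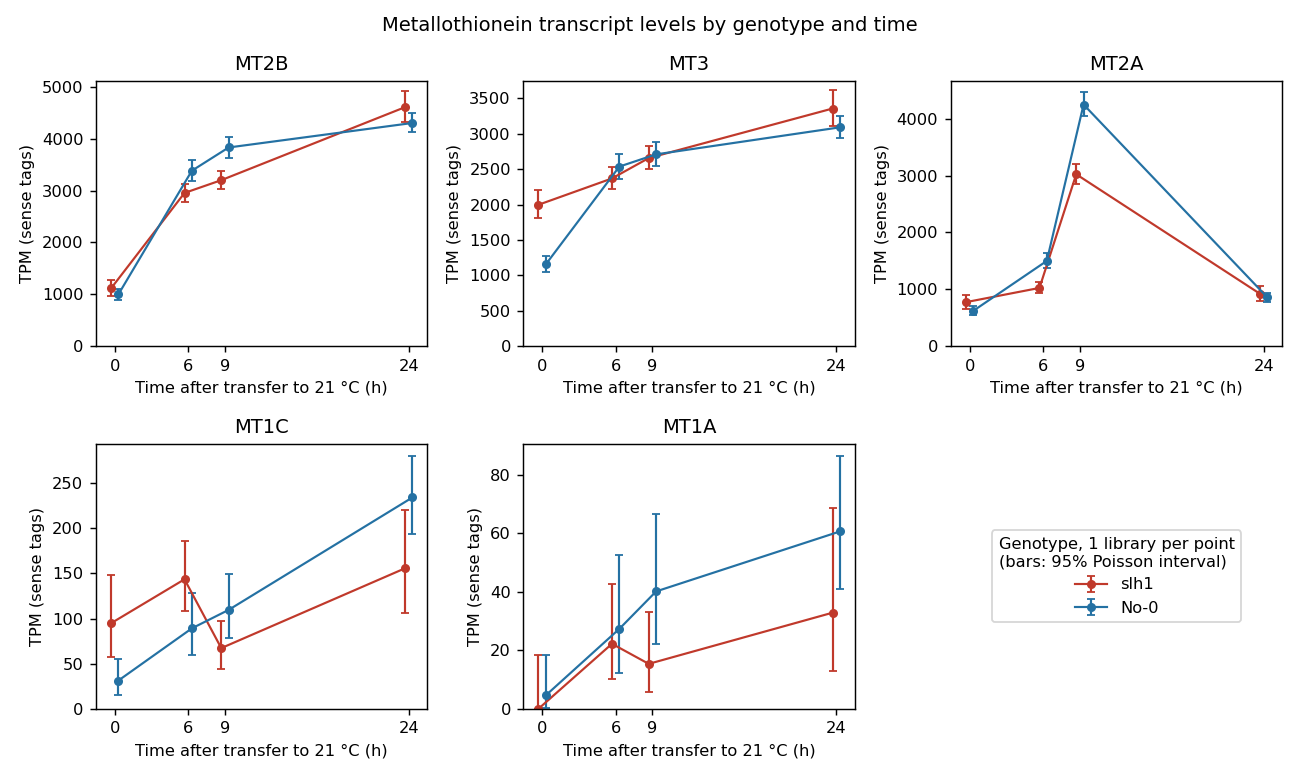
TPM of each member against time after transfer to 21 °C, slh1 in red and No-0 in blue, 1 library per point with its 95% Poisson interval. MT2B and MT3 are lowest at 0 h in each genotype, MT2A is highest at 9 h with 3022 TPM in slh1, against 4248 TPM in No-0, and the MT1A panel reaches only 60.6 TPM.

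MT2A, the other class 2 gene, rose to a peak at 9 h and was back near its level before the transfer at 24 h. It had 773, 1023, 3022 and 919 TPM in slh1 at 0, 6, 9 and 24 h, against 620, 1498, 4248 and 856 TPM in No-0. Only the 9 h libraries exceeded 1500 TPM. The log2 fold change from 0 h over both genotypes was 0.87 ± 0.26 at 6 h (edgeR adjusted p 0.0253), 2.32 ± 0.26 at 9 h (2.99e-13) and 0.41 ± 0.26 at 24 h (0.282, not passed). Set against the mean of 6 and 9 h, MT2A fell at 24 h, with a log2 difference of -1.19 ± 0.23 (1.64e-05). The call at 6 h was lost with RLE size factors, with a filter of at least 20 tags on average, with DESeq2 and without either No-0 library at 0 h or 6 h.

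The class 2 genes are alike in coding sequence, and their levels are set beside each other as a description. The ratio of MT2A to MT2B tags was 0.695, 0.346, 0.944 and 0.199 in slh1 at 0, 6, 9 and 24 h, against 0.623, 0.443, 1.11 and 0.199 in No-0. It was highest at 9 h and lowest at 24 h in both genotypes. The promoters were searched for 6 short motifs on both strands. The 250 bases before the annotated start of MT2A are shown with the evening element, a motif known from genes that peak late in the day, in capitals.
MT2A promoter: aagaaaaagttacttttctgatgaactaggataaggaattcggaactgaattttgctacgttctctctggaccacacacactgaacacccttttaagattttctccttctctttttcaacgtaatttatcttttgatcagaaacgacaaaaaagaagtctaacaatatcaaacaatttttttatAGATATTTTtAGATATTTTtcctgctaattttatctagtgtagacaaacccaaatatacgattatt
This window lies on chromosome 3 from 2890575 to 2890824 on the minus strand. The letters AAAATATCT on either strand (here as AGATATTTT) were found at 2 places, which begin 66 and 56 bases before the start and do not overlap. Of 37897 windows of the same length, 2.11% hold the evening element, and it was not found in the windows of the other 4 members. The G-box CACGTG, in 5.39% of all windows, was found once before MT2B and once before the annotated start of MT1A. The letters GTAC, the core of copper response elements, were in 34.8% of all windows and once in that of MT3. The W-box (TTGACC or TTGACT, 27.5% of all windows), the CRT/DRE core CCGAC (12.0%) and the telo-box AAACCCTAA (2.83%) were found in none of the 5 members' windows. These matches describe the sequence only.

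The class 1 genes MT1C and MT1A were the lowest members in every library. MT1C had 94.7, 143, 67.2 and 156 TPM in slh1 at 0, 6, 9 and 24 h, against 31.2, 89.1, 110 and 234 TPM in No-0. In No-0 the lowest of these was at 0 h, while in slh1 it was at 9 h, from 27 tags. The log2 fold change from 0 h over both genotypes was 1.02 ± 0.45 at 6 h and 0.58 ± 0.46 at 9 h, which did not pass the test (edgeR adjusted p 0.242 and 0.532), and 1.85 ± 0.45 at 24 h (0.000729). Against the mean of 6 and 9 h it was higher at 24 h by 1.05 ± 0.34 (0.0221). Both calls at 24 h were lost without the No-0 library at 0 h and without that at 24 h, and the second also without slh1 at 9 h or No-0 at 6 h, with no filter, with DESeq2 and with limma-voom.

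The MT1A row had 0, 22.2, 15.4 and 32.8 TPM in slh1 at 0, 6, 9 and 24 h, against 4.59, 27.3, 40.1 and 60.6 TPM in No-0. These are between 0 and 30.5 tags. MT1A lies inside AT1G07590 in TAIR10.1, and whether the MT1A row holds all tags of the gene was not tested. Both 0 h libraries lay under the floor of 3 tags, and the libraries at 21 °C lay above it. At 24 h the No-0 value was 13.2 times that at 0 h, which rests on 1.67 tags (95% counting interval 3.03 to 155). In slh1 the 24 h value was 2.20 times the 3-tag floor of its 0 h library, and the lower 95% counting limit of its ratio to 0 h was 1.34. The 24 h change over both genotypes passed the test (edgeR adjusted p 0.00420), while those at 6 h (0.112) and 9 h (0.0822) did not. It was lost without the No-0 library at 0 h and without that at 24 h. No fitted fold change of MT1A from 0 h is given because it depends on the prior count.

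**Figure D3:**
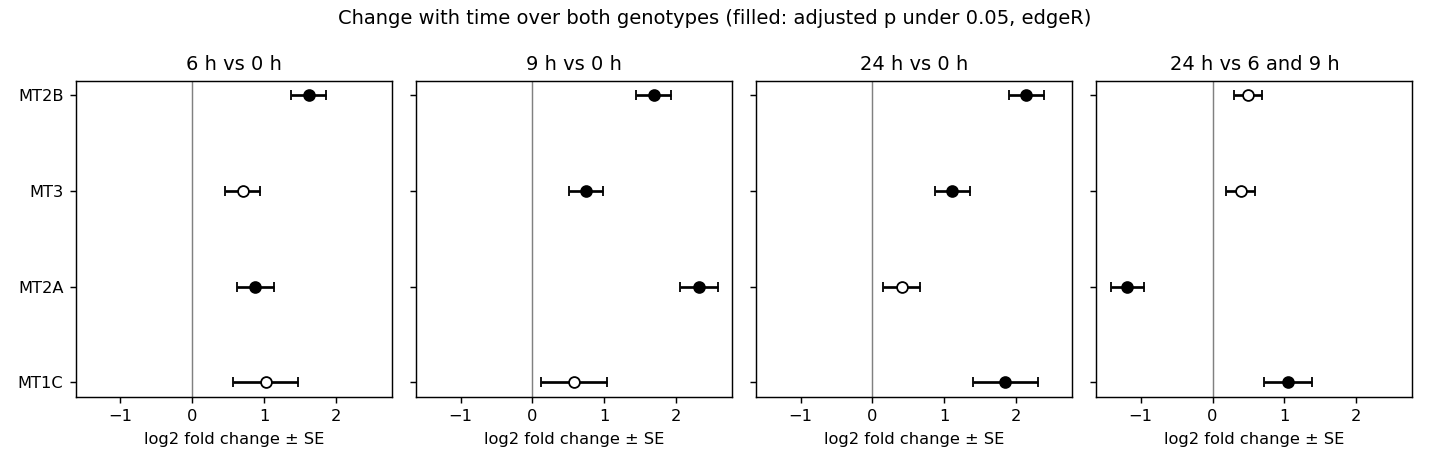
Log2 fold change ± SE over both genotypes for MT2B, MT3, MT2A and MT1C in 4 comparisons of times (edgeR), with filled points for adjusted p under 0.05. MT2A is the only one of these 4 genes below 0 in a comparison, at -1.19 for 24 h against 6 and 9 h, and its largest value is 2.32 at 9 h.

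Of the 5 members, all of which passed the filter on low counts, 2 rose at 6 h (MT2A and MT2B), where 2.66% of the 7824 genes tested were called higher. At 9 h 3 members rose (MT2A, MT2B and MT3), against 4.45% of all genes, and at 24 h 4 rose (MT1A, MT1C, MT2B and MT3), against 10.5%. No member was called lower than at 0 h, beside 1.55%, 3.04% and 8.26% of all genes at 6, 9 and 24 h. Between 24 h and the mean of 6 and 9 h, 1 member was higher (MT1C, against 6.70% of all genes) and 1 lower (MT2A, against 6.01%). The median log2 fold change of the members from 0 h was 1.02 at 6 h, 1.69 at 9 h and 1.85 at 24 h, where the median of all genes tested was 0.06, 0.05 and 0.03. Over the 4 members without MT1A it was 0.95 at 6 h, 1.22 at 9 h and 1.48 at 24 h. Within single genotypes, these 4 are among the 2115 genes that averaged 20 tags or more. On the scale log2(TPM + 5), 1 of them (MT2B) was at least 2-fold higher in slh1 at 6 h than at 0 h, 2 at 9 h (MT2A and MT2B) and 1 at 24 h (MT2B), where 18.0%, 22.2% and 21.7% of the genes were. In No-0 all 4 were so at 6 h and at 9 h and 3 (without MT2A) at 24 h, where 14.8%, 19.8% and 21.7% of the genes were. Each later library of a genotype is set against the same 0 h library.

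The comparison of genotypes asks whether the members differ in slh1 around the shift. No member passed the edgeR test at 21 °C, where 8 genes (0.102%) were called, 2 higher and 6 lower, and 417 genes had p below 0.05 before adjustment. The log2 fold changes, slh1 minus No-0, were -0.50 ± 0.19 for MT2A (adjusted p 0.719), -0.29 ± 0.17 for MT2B, -0.18 ± 0.17 for MT3 (0.996), -0.38 ± 0.33 for MT1C and -1.02 ± 0.61 for MT1A. All 5 were below 0, beside a median of -0.05 over all genes. Scaling to total sense tags raised the median of all genes by 0.18, put MT3 at 0.0058 and turned the split of calls to 8 higher and 1 lower, and RLE size factors gave 6 higher and 4 lower. DESeq2 called 1 gene and limma-voom 20, none of them a member.

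For MT2A the counting interval lay below 1 at 6 and 9 h. Its ratio of slh1 to No-0 was 1.25 at 0 h (95% counting interval 1.01 to 1.54), 0.683 at 6 h (0.596 to 0.781), 0.711 at 9 h (0.659 to 0.767) and 1.07 at 24 h (0.900 to 1.28). Of 14 alternative fits of the MT2A difference at 21 °C, only that without the 24 h pair gave a call, at -0.74 ± 0.14. It leaves out the pair at 21 °C whose ratio was above 1. Over the fits that left out a time the difference was between -0.74 and -0.26. The ratio of MT2B was 0.873 at 6 h and 0.835 at 9 h, with log2 intervals of -0.32 to -0.07 and -0.37 to -0.15, without a call. Neither gene was 2-fold apart between genotypes at 6 or 9 h on the scale log2(TPM + 5). Of the 2115 genes that averaged 20 tags or more, 8.09% were at least 2-fold higher in slh1 at 6 h and 1.99% lower. At 9 h these shares were 4.96% and 2.03%. The added genotype difference at 24 h over that at 0, 6 and 9 h rests on 1 pair, whose spread is taken from the other pairs (2 residual degrees of freedom). It passed for no member, where 20 genes (0.256%) were called and 537 had p below 0.05 before adjustment. In this comparison 4 genes were called by DESeq2 and 16 by limma-voom.

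At 28 °C slh1 had higher MT3 and MT1C levels in TPM than No-0, with 1 library against 1. The level of MT3 in slh1 was 1.73 times that in No-0 (log2 ratio 0.79, 95% counting interval 0.59 to 0.99) and that of MT1C 3.03 times (log2 ratio 1.60, 0.46 to 2.80), from 19 MT1C tags in slh1 and 11.3 in No-0. In the model their log2 fold changes were 0.70 ± 0.31 and 1.54 ± 0.70, with an edgeR adjusted p of 0.990 each, and 3 of all genes (0.0383%) were called, with 360 at p below 0.05 before adjustment. DESeq2 and limma-voom called 1 gene each. MT2A (1.25) and MT2B (1.12, 0.941 to 1.32) were closer to 1. On the scale log2(TPM + 5), MT1C alone of the 4 members averaging 20 tags or more was at least 2-fold higher in slh1. Of the 2115 genes with such an average, 5.20% were at least 2-fold higher and 6.00% lower. The share of all genes with a counting interval apart from 1 was not computed.

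**Figure D4:**
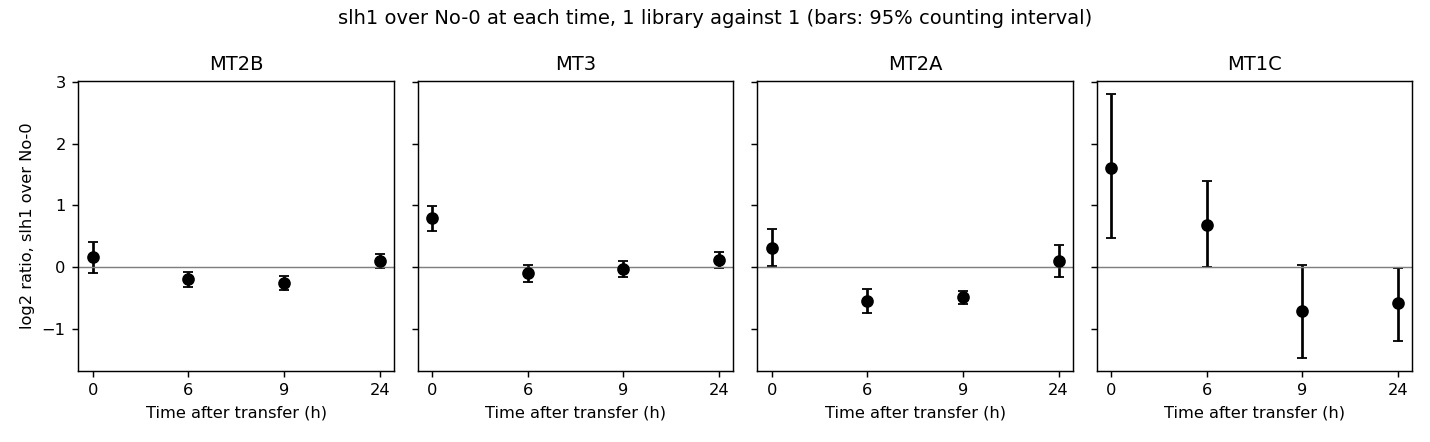
Log2 ratio of slh1 over No-0 at each time for MT2B, MT3, MT2A and MT1C, 1 library against 1, with 95% counting intervals. MT3 and MT1C lie above 0 at 0 h (0.79 and 1.60), and MT2A lies below 0 at 6 h (-0.55) and 9 h (-0.49).

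Counts that are not whole mark tags shared between loci, since the authors split a read equally between the genes it fell on. MT1A was fractional in 7 of 8 libraries, which are all that had MT1A tags, and MT1C in 4 of 8. MT2B was fractional in 3 libraries, MT3 in 2 and MT2A in 0. A whole count does not show that no tag was shared, since split parts can add up to a whole number. For MT2B and MT3 no shared exact window and no overlapping gene on the same strand was found in TAIR10.1. The source of their fractions is therefore not known. Of all sense loci with tags, between 8.44% and 10.6% were fractional in a library. In TAIR10.1 the whole MT1A gene (418 bases) lies inside AT1G07590 (chromosome 1, 2336477 to 2339391), a gene on the same strand, and so do the 500 bases downstream of it. The MT1A model is annotated without untranslated regions, and gene limits in the TAIR10 annotation behind the counts may differ. In slh1 the counts of MT1A and AT1G07590 had the same fractional part at 9 h (6.17 and 935.17 tags) and 24 h (6.75 and 1188.75). At 6 h they did not (8.75 and 1085.25). Each No-0 library had the same part in both rows, as at 9 h (14.58 and 816.58). Whether MT1A tags were split with AT1G07590 was not tested, and MT1A values and intervals take the counts as they stand. Of the 36-base windows in the 500 bases downstream of MT1A, 76 also match MT1B (AT5G56795, chromosome 5, 22971713 to 22972690) exactly. Inside the MT1A gene, 29 of 383 windows match MT1B exactly and 4 match MT1C.

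AT1G07590 and MT1B were therefore set beside the members, a choice made after seeing the data. AT1G07590 had 656, 2755, 2328 and 5781 TPM in slh1 at 0, 6, 9 and 24 h, against 553, 2983, 2245 and 5047 TPM in No-0, fractional in 8 of 8 libraries. MT1B had 102, 377, 437 and 817 TPM in slh1, against 86.4, 458, 440 and 742 TPM in No-0, fractional in 6 of 8 libraries. AT1G07590 was thus above MT1A in every library, and MT1A held at most 1.75% of the tags of both. The AT1G07590 to MT1B ratio of tags stayed between 5.10 and 7.31, and both rows were lowest at 0 h and highest at 24 h. Of the 943 windows of 36 bases in MT1B, 109 match AT1G07590 exactly. Reads from these are split between both rows, which are therefore not independent. From 0 h to 24 h the log2 fold change was 3.23 ± 0.26 for AT1G07590 (edgeR adjusted p 1.91e-25) and 3.15 ± 0.34 for MT1B (1.42e-15). Which transcript the AT1G07590 tags came from was not tested, as the files give no tag positions.

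**Figure D5:**
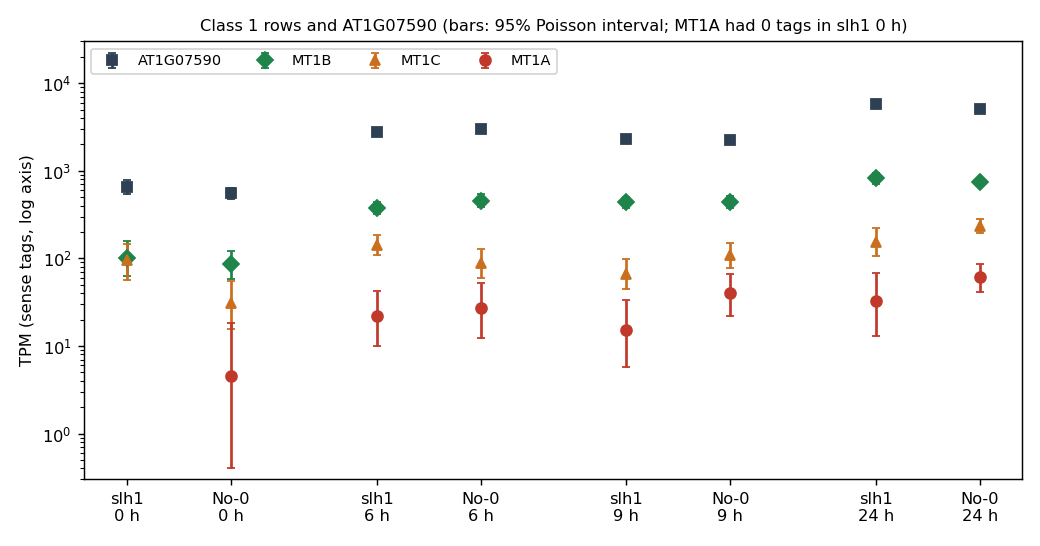
TPM on a log axis of the class 1 rows and AT1G07590 in each library, slh1 left of No-0, with 95% Poisson intervals. AT1G07590 lies between 553 and 5781 TPM, above MT1B, MT1C and MT1A in every library, and MT1A has no point in slh1 at 0 h, where it had 0 tags.

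MT1B is regarded as a gene without a working product, and its reading frame shows how it relates to MT1A. The longest run that its annotated coding sequence shares exactly with that of MT1A is in capitals.
MT1B: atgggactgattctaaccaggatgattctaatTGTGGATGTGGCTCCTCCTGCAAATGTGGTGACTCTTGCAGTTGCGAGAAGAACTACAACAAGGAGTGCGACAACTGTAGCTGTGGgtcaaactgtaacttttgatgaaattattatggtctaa
The run of 86 bases covers positions 33 to 118 of the MT1B sequence and 16 to 101 of the MT1A sequence, counted from the A of each ATG, and the frames differ by 2 bases. The annotated MT1B frame has 0 cysteine codons. Summed over MT1A, MT1B and MT1C, the class 1 rows had 197, 543, 520 and 1005 TPM in slh1 at 0, 6, 9 and 24 h, against 122, 574, 590 and 1037 TPM in No-0. This sum was likewise chosen after seeing the data. Between 0 h and 24 h it rose by 2.77 ± 0.31 on the log2 scale (edgeR adjusted p 2.68e-14), and with AT1G07590 added it rose by 3.14 ± 0.25 (3.70e-25). Neither sum passed the test between genotypes, with -0.27 ± 0.22 and -0.16 ± 0.17 at 21 °C.

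Antisense tags were unevenly spread over the members. They were between 6.25% and 11.3% of the tags at the MT2A locus, between 2.99% and 8.46% at MT3 and at most 1.10% at MT2B. At MT1C they were between 0% and 19.1%, from at most 4.5 antisense tags in a library, and at MT1A 17.6% over all libraries, from 16.5 antisense tags in all. MT3 is overlapped on the opposite strand by COX17 (24 bases), which serves copper delivery to the mitochondria, and by AT3G03105 (278 bases). MT2A has no annotated overlapping gene. The antisense TPM of MT2A was highest at 9 h, at 276 TPM in slh1 against 297 TPM in No-0, at the time when its sense level peaked.

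The profiles of the members across the 8 libraries are described by Pearson's r of log2(TPM + 5), without a test, since the libraries share genotypes, times and depth. MT2B followed MT1A (0.93) and MT3 (0.91), whereas MT2A had r between 0.00 (MT1C) and 0.48 (MT2B) with the other members. Among the same 2115 genes, the profiles most like MT2B were MT1B (0.990), RPS15A (0.989) and AT4G00585 (0.987). Those most like MT3 were AT3G52230 (0.981), EBF1 (0.969) and AT1G77540 (0.969), and those most like MT2A were AT4G14270 (0.930) and AT4G32470 (0.928). For MT1C they were UBQ14 (0.948), AT2G34585 (0.938) and SMT2 (0.937), and for MT1A AT1G12250 (0.975), AT2G25210 (0.971) and AT4G30760 (0.967).

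Other genes of metal handling were read from fixed lists. Of 16 genes of copper handling, 13 were tested, and at 24 h against 0 h 5 rose and 1 fell, where 10.5% of all genes tested were called higher and 8.26% lower. Their median log2 fold change was 1.14 beside 0.03 over all genes. COPT1, a copper importer, rose by 3.01 ± 0.51 (edgeR adjusted p 5.34e-07). The copper/zinc superoxide dismutases CSD1 (1.83 ± 0.33) and CSD2 (1.15 ± 0.28), their copper chaperone CCS (1.96 ± 0.51) and the chaperone ATX1 (1.14 ± 0.40) rose as well, of which ATX1 is named after its values were seen. FSD1, the iron superoxide dismutase that takes the place of CSD1 and CSD2 when copper is short, fell by 1.87 ± 0.35 on the log2 scale (4.32e-06). CSD1 had 130, 454, 632 and 438 TPM in slh1 at 0, 6, 9 and 24 h, against 138, 461, 605 and 475 TPM in No-0. FSD1 had 673, 249, 42.3 and 151 TPM in slh1, against 477, 255, 176 and 159 TPM in No-0. Every later library was above its 0 h library for CSD1 and below it for FSD1. At 6 h CSD1, CSD2 and COPT1 were called higher (2.66% of all genes) and FSD1 lower (1.55%), and at 9 h CSD1 and CSD2 were higher (4.45%) and FSD1 lower (3.04%). No gene of the list was called between genotypes.

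Of 17 genes of zinc, iron and cadmium handling only 8 were tested, and at 24 h against 0 h the ferritins FER1 (2.57 ± 0.76, edgeR adjusted p 0.00785) and FER4 (3.54 ± 1.10, 0.0118) rose and FER3 fell by 2.54 ± 0.95 on the log2 scale (0.0449), beside 10.5% of all genes higher and 8.26% lower. In slh1, FER3 had 0 tags at 24 h and FER4 had 0 tags at 0 h. The No-0 values there were 7.95 TPM for FER3 and 5.51 TPM for FER4, the latter under the floor of 3 tags (8.27 TPM). At 0 h FER1 had 9.97 TPM in slh1, under the floor of that library (15.0 TPM), and 13.8 TPM in No-0. These ferritin fold changes thus rest on few tags. Of the 4 genes of phytochelatin and glutathione synthesis, the thiol peptides that also bind cadmium, GSH1 and GSH2 were tested and neither was called in any comparison. GSH1 had 64.8, 63.5, 59.7 and 4.86 TPM in slh1 at 0, 6, 9 and 24 h, against 110, 77.2, 41.2 and 78.5 TPM in No-0. The slh1 value at 24 h is 1 tag, under the floor of 3 tags (14.6 TPM in that library).

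Markers of leaf ageing and of the phloem were set beside the class 1 and MT2B values, and their part in these was not tested. The 9 senescence genes summed to 64.8, 114, 82.1 and 1187 TPM in slh1 at 0, 6, 9 and 24 h, against 51.0, 76.4, 38.5 and 547 TPM in No-0. SAG21, a late embryogenesis abundant protein gene, and SEN1, a gene induced in the dark, made up most of the 24 h sums, and SAG12, a defining marker of senescence, had 0 tags in every library. The 4 phloem companion cell genes (SUC2, AHA3, PP2-A1 and SULTR2;1) summed to 254, 218, 144 and 82.7 TPM in slh1, against 265, 73.2, 187 and 137 TPM in No-0. The phloem sum was highest at 0 h in both genotypes, as were AHA3 and PP2-A1, but the other genes were not uniform. SUC2 was highest at 0 h in No-0 (68.9 TPM) and lowest at 0 h in slh1 (19.9 TPM). SULTR2;1 was highest at 0 h in slh1 (79.8 TPM) and at 9 h in No-0 (85.2 TPM).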

How the data were processed

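Sense tags of 8 leaf libraries were analysed, grouped by the genotype and time in their titles. The authors deposited expected counts, that is tags summed for each locus without any scaling. Their reads were truncated to 36 bases and filtered by quality. The submitters' processing notes name Bowtie 0.12.8, Novoalign 2.08.03 and TAIR10, while the methods name BWA for these paired reads, so that the aligner is not certain. Reads on overlapping genes or on up to 10 genes were split equally. Prefixed locus names were read as antisense, which the files do not state. No molecular identifiers were used, and nothing says that the libraries came from separate plantings.

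After rounding, a quasi-likelihood F test was run in edgeR 4.0.16 (R 4.3.3) on 7824 genes kept by filterByExpr, with TMM scaling, Benjamini-Hochberg adjustment and a threshold of 0.05. Times were tested with genotype as an added term (3 residual degrees of freedom), and genotypes with time as a block (2 residual degrees of freedom). At 28 °C a single pair is compared, whose spread is taken from the other pairs. SEs were taken as the log2 fold change over the square root of F. Poisson and Clopper-Pearson 95% intervals kept fractional counts. A count was called fractional when it was more than 1e-06 from a whole number. Of 21063 sense loci 98.5% matched TAIR10.1 (RefSeq), which gave symbols, positions and sequences. DESeq2 1.42.0, limma 3.58.1 (voom), other scalings and filters, and leaving out libraries were the alternatives.

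The genes named are the members and other metallothionein loci, the 3 genes most like each member in profile (1 of them is not reported here), and in each list up to 5 that passed a test or otherwise up to 4 with the highest levels. Members and lists were chosen with earlier results of these data known. A placeholder sample of unassigned reads was not used here.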

Additional observations from a re-analysis of the deposited data

Results flagged for a closer look

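MT1C moved in opposite directions in the genotypes between 0 h and 9 h. In slh1 it was at 94.7 TPM at 0 h and 67.2 TPM at 9 h (log2 ratio of 9 h over 0 h -0.49). The No-0 libraries gave 31.2 TPM at 0 h, then 110 TPM at 9 h (log2 ratio 1.81). The log2 ratio in slh1 minus that in No-0 was -2.30, and this difference was not tested. The counting interval of the slh1 ratio (0.380 to 1.35) includes 1 and that of the No-0 ratio (1.78 to 7.49) does not. The lowest count behind these values was 11.3 tags.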

How the results depend on the processing

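Of the 11 member results called in comparisons of times, 168 of 191 alternative fits gave the same call and 23 lost it, and of the 24 not called, 317 of 332 fits gave the same answer, 9 gained a call and 6 changed sign. MT2B from 0 h at 6, 9 and 24 h, and MT2A at 9 h from 0 h and at 24 h from 6 and 9 h, were called under all alternatives run. The calls gained or lost are named beside the results, apart from MT3 at 6 h, gained with limma-voom and without either slh1 library at 0 or 6 h or either 24 h library and MT1A at 9 h, gained with counts rounded down. The cause was not tested.

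The number of genes called between genotypes at 21 °C was 1 with the filter of 20 tags, 4 with no filter, 1 with DESeq2, 20 with limma-voom, 30 without organelle loci and 1 to 47 when a time was left out. At 28 °C it was 0 with the filter of 20 tags (98 genes at p below 0.05 in edgeR before adjustment), 1 with DESeq2, 1 with limma-voom and 3 to 5 when a time was left out. For the extra difference at 24 h it was 13 with the filter of 20 tags, 13 with no filter, 4 with DESeq2 and 11 to 92 when a time was left out. At 6 h against 0 h it was 213 with the filter of 20 tags, 197 with no filter, 142 with DESeq2 and 48 to 439 when 1 library was left out, the lowest without No-0 at 0 h. At 9 h it was 299 with DESeq2 and 157 to 745 when 1 library was left out. At 24 h it was 872 with the filter, 829 with DESeq2 and 718 to 1428 when 1 library was left out, and against 6 and 9 h it was 580, 514 and 505 to 955.

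Signs changed in small differences. At 21 °C, slh1 minus No-0, MT3 was 0.0058 (log2) with total sense tags, and AT1G07590 was 0.053 with total sense tags, 0.0015 with the filter of 20 tags and -0.26 to 0.073 when a time was left out, where MT1B was -0.37 to 0.017. At 28 °C MT2B was -0.019 with no filter. The extra difference of MT3 at 24 h was -0.11 with total sense tags, -0.22 with no filter and -0.035 to 0.44 when a time was left out. MT1C at 9 h against 0 h was -0.28 to 1.56 when 1 library was left out. Over nuclear tags alone the log2 ratio of the family sum was -0.35 for slh1 over No-0 at 6 h and 0.17 at 24 h, and in No-0 it was 1.86 at 9 h and 1.44 at 24 h over 0 h. Each group holds 1 library, and the smallest, slh1 at 0 h and 24 h, limit rows with few tags such as that of MT1A. No paired analysis was possible because replicate numbers pair nothing where each group has 1 sample, beyond the time block that the genotype tests already hold.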
